A study of Homo sapiens with 12 samples.

Results

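The 38 genes described here encode aminoacyl-tRNA synthetases and the scaffold proteins that hold several of them together. They were listed by gene symbol, by a rule that uses no measured value, and they were 38 of the 61860 genes in the count file. The cytosolic enzymes had 19 genes, the mitochondrial enzymes 16 and the scaffold proteins 3 (AIMP1, AIMP2 and EEF1E1). All 38 passed the filter on low counts in every comparison. The lowest value of any member in any library was 958 counts, for the mitochondrial phenylalanyl enzyme FARS2.

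RNA was sequenced from 2 lines of HEK293 cells, a human embryonic kidney line, of the Flp-In T-REx kind, in which a construct sits at a defined genomic site and doxycycline switches it on. In both lines doxycycline at 1 µg/ml for 6 days induced a chain of miRNAs that target the cell's own PGC-1α transcript, along with a FLAG-tagged PGC-1α that these miRNAs do not target. That protein was wild type in PGC-1α WT-res and lacked its RS domain in PGC-1α ΔRS-res. PGC-1α is a transcriptional co-activator of energy metabolism, and the comparison asks what loss of its RNA-binding RS domain does to mRNA in whole cells and in the cytoplasm. Each line had 3 whole-cell and 3 cytoplasmic libraries from consecutive passages, so that there were 12 libraries in 4 groups of 3, with 90333190 to 144628005 counts each. Cells without doxycycline were not analysed here. Each line grew from a single colony, and passages of 1 line are not independent lines, so a difference between the lines cannot be told apart from a difference between 2 clones.

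One library, labelled WT-res whole-cell replicate 3, did not carry the marks of its line. DDX19B stood at 12.6 and 13.2 CPM (library-scaled counts per 1000000) in WT-res whole-cell replicates 1 and 2, at 0.199 in replicate 3 and at 0.229 to 0.263 in ΔRS-res. SDHA stood at 72.7, 70.9 and 335 CPM in WT-res and at 338 to 392 in ΔRS-res. Each whole-cell comparison of the lines, and the count of members that differ between the fractions of WT-res, is therefore given with and without it. PPARGC1A, the gene of PGC-1α, was at 672, 689 and 498 CPM in WT-res whole-cell RNA, against 352, 364 and 498 in that of ΔRS-res, and in the cytoplasm at 652, 538 and 624 against 291, 287 and 385. These sums hold reads of the construct and of the endogenous gene together, and so they check neither the depletion nor the deletion.

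The libraries carried the epithelial genes KRT8 and KRT18 and the kidney lineage genes PAX2 and LHX1. In TPM (counts divided by transcript length, scaled to 1000000 per library) PAX2 was at 1.24 to 2.45 and LHX1 at 0.957 to 2.65. KRT8 was at 72.4 to 158 TPM and KRT18 at 66.6 to 111. VIM and CDH2, which were also listed as HEK293 markers, were at 555 to 867 and 5.79 to 37.7 TPM. Defining markers of blood, endothelial, liver, muscle and pancreatic cells were at or near 0: PTPRC had 0 to 4 counts per library and INS had 0. The nuclear RNA NEAT1 was at 213 to 336 CPM in whole-cell libraries and at 72.5 to 123 in cytoplasmic libraries, while MALAT1 overlapped, at 1337 to 3147 against 968 to 1705.

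Aminoacyl-tRNA synthetases join each amino acid to its tRNA, the step that gives the genetic code its meaning, and the ribosome draws on these charged tRNAs. Cytosolic and mitochondrial protein synthesis use largely separate enzymes, all encoded in the nucleus; KARS1 and GARS1 are exceptions whose products serve both compartments. Glutamyl-prolyl (EPRS1), isoleucyl, leucyl, methionyl, glutaminyl, arginyl and lysyl enzymes join the 3 scaffold proteins in the multi-synthetase complex, and the other cytosolic enzymes described here work outside it. When amino acids or protein folding capacity run short, the transcription factor ATF4 is known to raise genes for amino acid synthesis, uptake and tRNA charging. Its site in many of these promoters is the C/EBP-ATF response element, CARE.

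The core letters of CARE, TGATGNAA or their reverse complement TTNCATCA, occurred in the promoters of 7 of the 16 cytosolic synthetases with an entry in the RefSeq promoter table (43.8%), 1 of 14 mitochondrial synthetases and 0 of 3 scaffold genes. Each window spanned 250 bases before to 50 after the annotated start, on GRCh38.p14, and 3.62% of all 35116 windows held the letters. YARS1, VARS1, LARS1, VARS2 and AARS2 had no entry. The matches are printed with the bases around them. The search fixed every letter of a match but N, which can be any base, so the likeness of the matches follows from the search. Capitals mark the match, and each sequence reads along the gene's strand with 10 bases on either side. No other motif was searched. A match is a description of letters and not of binding.
AARS1 (chr16:70289676-70289703, minus strand): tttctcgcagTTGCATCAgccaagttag
CARS1 (chr11:3057408-3057435, minus strand): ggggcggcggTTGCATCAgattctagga
GARS1 (chr7:30594835-30594862, plus strand): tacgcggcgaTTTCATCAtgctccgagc
IARS1 (chr9:92293693-92293720, minus strand): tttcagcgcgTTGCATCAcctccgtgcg
MARS1 (chr12:57488054-57488081, plus strand): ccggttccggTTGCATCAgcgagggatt
NARS1 (chr18:57621805-57621832, minus strand): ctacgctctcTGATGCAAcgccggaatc
TARS1 (chr5:33440957-33440984, plus strand): cgcctttcgaTTGCATCAgctggtccag
YARS2 (chr12:32756077-32756104, minus strand): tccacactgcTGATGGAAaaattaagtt

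In 5 of the 7 cytosolic promoters the match lay within 14 bases of the annotated start: 2 bases before it in CARS1, 4 in MARS1 and 13 in IARS1, and 2 bases after it in TARS1 and 14 in NARS1. The match in GARS1 lay 33 bases before the start, and those of AARS1 and the mitochondrial tyrosyl enzyme YARS2 lay 187 and 197 bases before it. The list of 24 ATF4 amino acid response genes had the letters in 6 of 20 promoters (30.0%), among them asparagine synthetase, ASNS. None of 14 promoters of tRNA charging partners, a list of 17 genes for tRNA export, editing and delivery, held them. XPOT counts in both lists throughout.

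Levels were compared between genes per length, as TPM from the transcript counts. The median cytosolic synthetase stood at 152 TPM in cytoplasmic RNA, the median mitochondrial synthetase at 27.6 and the median scaffold gene at 104. The threonyl enzyme TARS1 was the highest member, at 395 ± 62.3 TPM (SD, n = 6 libraries), above IARS1 at 225 ± 34.7 and YARS1 at 205 ± 43.3, which differed from each other by less than their spread and stood at 159 and 207 TPM by longest transcript. The cysteinyl enzyme CARS1 was the lowest cytosolic member, at 32.3 ± 4.11 TPM. Among mitochondrial enzymes IARS2 was highest, at 119 ± 12.6, and the prolyl enzyme PARS2 lowest, at 10.1 ± 1.17, though by longest transcript FARS2 was the lowest (6.76 TPM, with PARS2 at 13.8). Of the scaffold genes EEF1E1 stood at 114 ± 11.4 TPM and AIMP2 at 104 ± 8.57, within their spread, and by longest transcript their order turned (138 and 140.2 TPM). AIMP1 was the lowest, at 70.5 ± 1.96.

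For 14 amino acids a cytosolic and a mitochondrial gene were set side by side, with FARSA taken for the cytosolic phenylalanyl enzyme and the joint enzyme EPRS1 left out, and the cytosolic one was higher in 13, by a median ratio of 4.80. The ratio of the phenylalanyl subunit FARSA to FARS2 was 12.6, and 26.8 by longest transcript, while the other subunit, FARSB, stood at 41.5 TPM against 12.0 for FARS2. The exception was cysteine, where CARS2 stood at 64.9 TPM and CARS1 at 32.3. Dividing by the longest transcript instead of each transcript's own length left the cytosolic gene higher in 12 pairs, since isoleucine then came to a ratio of 0.981.

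Most cytosolic synthetases were high or low in particular libraries of both lines rather than in 1 line. In cytoplasmic RNA, 12 of the 19 had their 3 highest values in WT-res replicate 1, WT-res replicate 3 and ΔRS-res replicate 3: AARS1, CARS1, EPRS1, GARS1, IARS1, LARS1, MARS1, NARS1, QARS1, SARS1, WARS1 and YARS1. Of 14938 genes with a mean count of at least 100, 23.6% had their 3 highest values there. These libraries were singled out after the values had been seen, and the order of libraries has no test. Another 3 cytosolic genes, FARSA, HARS1 and RARS1, had their lowest values in these libraries, against 22.2% of all genes. The 12 held 6 of the 7 cytosolic genes with the CARE letters (not TARS1), 4 of the 9 searched without a match (EPRS1, QARS1, SARS1 and WARS1) and 2 of the 3 with no promoter entry. A single mitochondrial enzyme, NARS2, was highest there, and EARS2, RARS2 and YARS2 were lowest.

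The seryl enzyme SARS1 shows the pattern. Its level was 236, 181 and 239 CPM in WT-res cytoplasmic replicates 1 to 3, and 170.3, 169 and 237 CPM in those of ΔRS-res. WT-res replicate 2 and ΔRS-res replicates 1 and 2 were the low libraries, and the lines overlapped. The arginyl enzyme RARS1 ran the other way, with 140.1, 207 and 152 CPM in WT-res and 192, 193 and 131 in ΔRS-res.

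In whole-cell RNA the libraries labelled WT-res replicate 3 and ΔRS-res replicate 3 stood apart in the same manner. They held the highest values of 12 of the 19 cytosolic synthetases, with 7 of 7 that have the CARE letters, 3 of 9 searched without a match and 2 of 3 with no entry among them, against 25.6% of all genes, and the lowest of FARSA, HARS1 and RARS1, against 21.6%. SARS1 was at 147, 145 and 183 CPM in WT-res and 149, 145 and 203 CPM in ΔRS-res. Since the first of these libraries carried the marks of ΔRS-res, whether WT-res had a high whole-cell library cannot be told from its label. SARS1 lay between 145 and 149 CPM in replicates 1 and 2 of both lines. Of 16 mitochondrial synthetases, 3 were highest in the replicate 3 libraries (IARS2, NARS2 and VARS2).

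ATF4 response genes took the same order of libraries. In cytoplasmic RNA 19 of the 24 had their 3 highest values in WT-res 1, WT-res 3 and ΔRS-res 3, and none had its lowest there. ASNS stood at 405, 224 and 448 CPM in WT-res and 243, 243 and 566 CPM in ΔRS-res. In whole-cell RNA 20 of the 24 were highest in the replicate 3 libraries, where ASNS was at 529.9 and 550.4 CPM against 200.4 to 233 in the other 4. The median cytosolic synthetase had a highest value 1.37 times its lowest in the cytoplasm, the median mitochondrial synthetase 1.21 times, the median ATF4 response gene 1.59 times and the median of all genes 1.33 times. The nuclear RNA NEAT1 was highest in the same libraries, at 123, 84.5 and 101 CPM in WT-res 1, WT-res 3 and ΔRS-res 3 against 72.5 to 78.9 in the other cytoplasmic libraries, and at 336 and 313 in the replicate 3 whole-cell libraries against 213 to 290.3 in the others. KCNQ1OT1, another nuclear RNA, was lowest in these cytoplasmic libraries, at 7.58, 6.22 and 6.02 CPM against 8.01 to 8.67, and MALAT1 was highest in the replicate 3 whole-cell libraries, at 3147 and 2091 CPM against 1337 to 1709. In the other fraction neither took this order. KCNQ1OT1 was at 29.3 and 22.7 CPM in the replicate 3 whole-cell libraries, within the 21.8 to 29.5 of the others. MALAT1 was at 1081 CPM in WT-res cytoplasmic 3 and at 1129 in ΔRS-res cytoplasmic 1. The part of nuclear RNA in this order was not tested, and culture state, medium and passage were not measured.

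**Figure D1:**
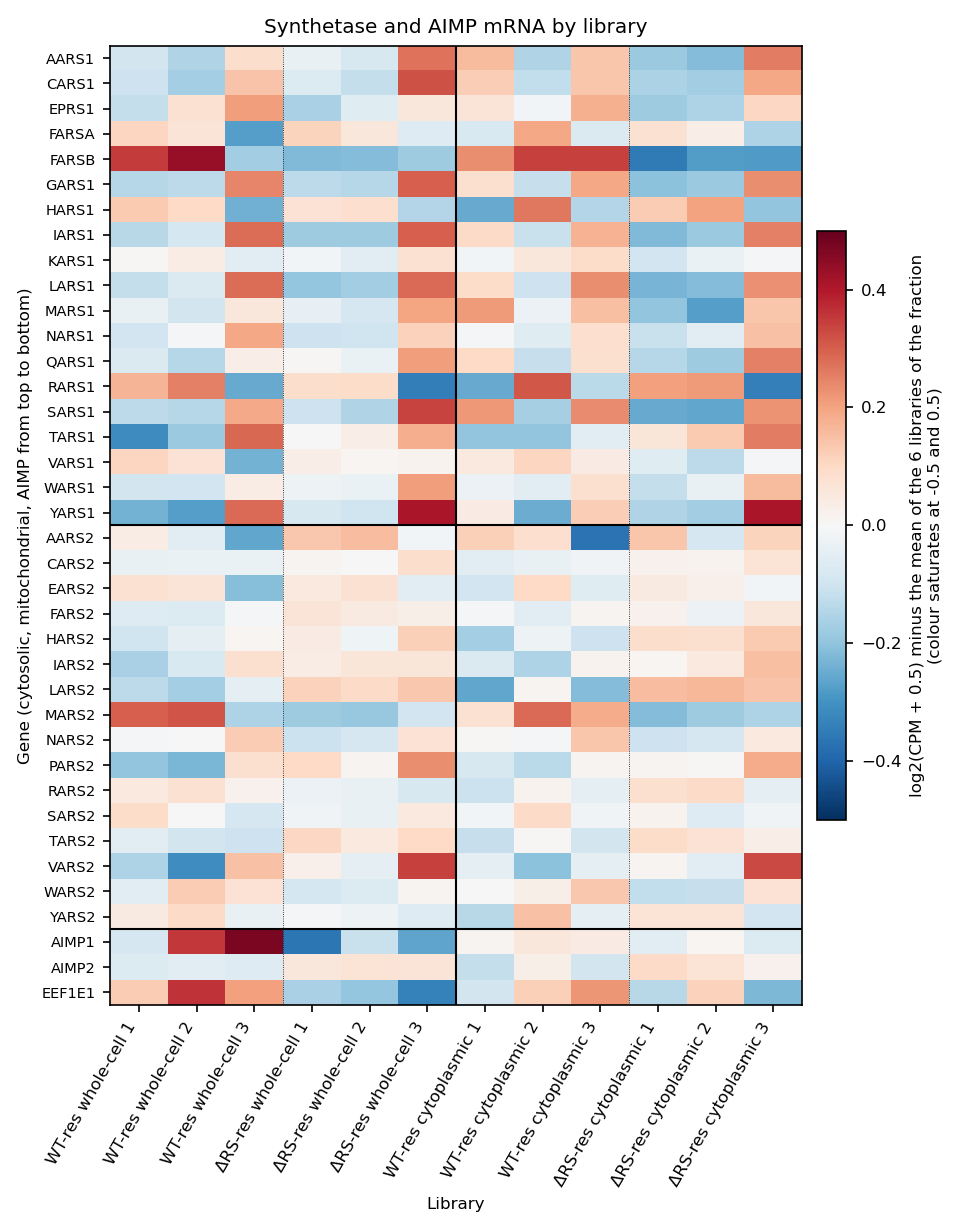
Colour gives log2(CPM + 0.5) of each of the 38 members (rows, grouped as cytosolic, mitochondrial and scaffold genes) in each of the 12 libraries (columns), minus the mean of the 6 libraries of that fraction. Most cytosolic rows are red in WT-res cytoplasmic 1 and 3 and in ΔRS-res cytoplasmic 3, RARS1 and HARS1 are blue there, and FARSB is blue in every ΔRS-res column and in WT-res whole-cell 3.

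In whole-cell RNA no member differed between the lines by edgeR's quasi-likelihood test at an adjusted p under 0.05 (Benjamini-Hochberg over 26793 genes), as for 0% of all genes. An unadjusted p under 0.05 was found for 6 members, against 12.5% of all genes, and DESeq2 called 2 (LARS2 higher, EEF1E1 lower), against 3.96% of all genes. The largest differences were those of the scaffold genes AIMP1 and EEF1E1 and of FARSB, all lower in ΔRS-res. AIMP1 was at 64.5, 87.5 and 95.0 CPM in WT-res and 53.2, 63.4 and 56.9 CPM in ΔRS-res, without overlap (log2 fold change -0.51, SE 0.147, edgeR adjusted p = 0.232). EEF1E1 was at 55.8, 65.8 and 59.0 CPM against 45.5, 44.5 and 40.3, also without overlap (log2 fold change -0.47, SE 0.0902, edgeR adjusted p = 0.213). In all 9 members did not overlap between the lines, against 24.1% of all genes with a mean count of at least 100.

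Same-numbered whole-cell libraries of the lines deviated together, so the replicate number was also fitted as a block. In the block fit, which called 7.97% of all genes, AIMP1 (edgeR adjusted p = 0.0319) and EEF1E1 (0.0261) were lower in ΔRS-res, and LARS2 and VARS2 were higher. AIMP1 and EEF1E1 were also called lower in the fit without WT-res whole-cell replicate 1, which called 2.24% of all genes, of which 5.81% were higher. The median log2 fold change was 0.03 for cytosolic and 0.08 for mitochondrial synthetases, against 0.00 for all genes.

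When WT-res whole-cell replicate 3 was left out, 2 members were lower in ΔRS-res and none was higher, against 1.18% of all genes lower and 0.886% higher. FARSB, the β subunit of the cytosolic phenylalanyl enzyme, was at 181 and 192 CPM in WT-res replicates 1 and 2 and at 122, 122 and 126 in ΔRS-res (log2 fold change -0.60, SE 0.0631, edgeR adjusted p = 0.00694). In the library left out it was at 126 CPM, among the ΔRS-res values. MARS2, which charges the mitochondrial initiator and elongator methionine tRNA, was at 44.8 and 45.3 CPM against 32.0, 31.7 and 33.9, and at 32.5 in the library left out (log2 fold change -0.47, SE 0.0711, edgeR adjusted p = 0.0225). EEF1E1 then had a log2 fold change of -0.48 (SE 0.0960, edgeR adjusted p = 0.0588) and AIMP1 of -0.40 (SE 0.136, edgeR adjusted p = 0.172), both still without overlap. Of the 38 members 23 did not overlap between the 2 WT-res and 3 ΔRS-res libraries, 14 higher and 9 lower in ΔRS-res, against 52.8% of all genes with a mean count of at least 100. The median log2 fold change was 0.09 for cytosolic and 0.09 for mitochondrial synthetases, against -0.01 for all genes. An unadjusted p under 0.05 was found for 10 members, against 20.1% of all genes, and DESeq2 called 6, against 9.14%.

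Fits that left out WT-res replicate 1 or 2 as well had 1 WT-res library, whose spread was taken to be that of the ΔRS-res libraries. Without WT-res replicate 2 neither gene was called, in a fit that called a smaller share of all genes than the one with both. FARSB then had a log2 fold change of -0.53 and MARS2 of -0.43. Without WT-res replicate 1, ΔRS-res replicate 1 or ΔRS-res replicate 2 FARSB alone was called, where 1.71%, 0.821% and 1.22% of all genes were and MARS2 had log2 fold changes of -0.48, -0.46 and -0.45. Without ΔRS-res replicate 3, 5 members were called, with TARS1 and LARS2 higher and EEF1E1 lower beside these genes, in a fit that called 6.54% of all genes. The replicate block called 11 members, in a fit that called 16.6% of all genes: TARS1, YARS1, IARS2, LARS2, PARS2, TARS2 and VARS2 were higher, and FARSB, MARS2, AIMP1 and EEF1E1 lower.

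In the cytoplasm the study kept WT-res replicates 1 and 3 and ΔRS-res replicates 1 and 2 after a principal component analysis of the libraries. Among these 4, 21 members differed, 8 higher in ΔRS-res and 13 lower, of 38, by edgeR's adjusted p. Of all genes 10.7% were higher and 11.4% lower, and among genes with a mean count of at least 100, as all members had, 17.4% and 17.9%. Cytosolic synthetases were mostly lower: 11 of 19 fell, 3 rose and their median log2 fold change was -0.25, against 0.01 for all genes. Of 16 mitochondrial synthetases 4 rose and 2 fell, with a median of 0.06.

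SARS1 was at 236 and 239 CPM in the 2 WT-res libraries and at 170.3 and 169 in those of ΔRS-res (log2 fold change -0.48, SE 0.0417, edgeR adjusted p = 0.00155). MARS1, the methionyl enzyme of the complex, was at 304 and 291 CPM against 229 and 217 (log2 fold change -0.41, SE 0.0528, edgeR adjusted p = 0.00432). The leucyl, alanyl and isoleucyl enzymes LARS1, AARS1 and IARS1 had log2 fold changes of -0.38, -0.35 and -0.33. GARS1, CARS1, EPRS1, QARS1 and YARS1 also fell, as did MARS2 and the mitochondrial tryptophanyl enzyme WARS2 (-0.33 and -0.19).

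RARS1 and HARS1, the arginyl and histidyl enzymes, rose, with log2 fold changes of 0.41 and 0.37. RARS1 was at 140.1 and 152 CPM in WT-res and 192 and 193 CPM in ΔRS-res, and HARS1 at 91.3 and 98.2 against 119 and 125. The mitochondrial leucyl enzyme LARS2 rose as well (53.4 and 55.0 against 71.4 and 71.8 CPM, log2 fold change 0.41, SE 0.0432, edgeR adjusted p = 0.00255). TARS1, HARS2, RARS2, TARS2 and AIMP2 rose by 0.17 to 0.23. HARS1 and HARS2 lie on opposite strands of chromosome 5 with overlapping starts, and how reads of their shared bases were divided was not tested.

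This selection set 2 libraries high in most cytosolic synthetases against 2 low ones. The libraries left aside were WT-res replicate 2, which was low, and ΔRS-res replicate 3, which was high. With all 6 cytoplasmic libraries 1 of the 38 members differed, FARSB, lower in ΔRS-res, against 0.948% of all genes lower and 0.578% higher. Of the members 5 had an unadjusted p under 0.05, against 10.8% of all genes, and DESeq2 called 3, TARS1 higher and FARSB and MARS2 lower, against 3.61%. SARS1 then had a log2 fold change of -0.18 (SE 0.160, edgeR adjusted p = 0.781), RARS1 of 0.05 (SE 0.188, edgeR adjusted p = 0.970) and HARS1 of 0.08 (SE 0.155, edgeR adjusted p = 0.925). The median of the cytosolic synthetases was -0.09 and that of the mitochondrial ones 0.08. Leaving out 1 of the 2 ΔRS-res libraries among the 4 gave fewer calls, and a smaller share of all genes called than the 22.1% with all 4. Leaving out 1 of the 2 WT-res libraries lowered neither. In these fits the lone library of a line was assumed to vary like those of the other line. With any 1 of the 4 left out, SARS1 had log2 fold changes of -0.50 to -0.47, RARS1 of 0.34 to 0.46 and HARS1 of 0.31 to 0.42. By the study's own threshold, which takes a log2 fold change beyond 0.5 and an unadjusted p under 0.05, FARSB alone passed among the 4 libraries, against 13.1% of all genes.

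**Figure D2:**
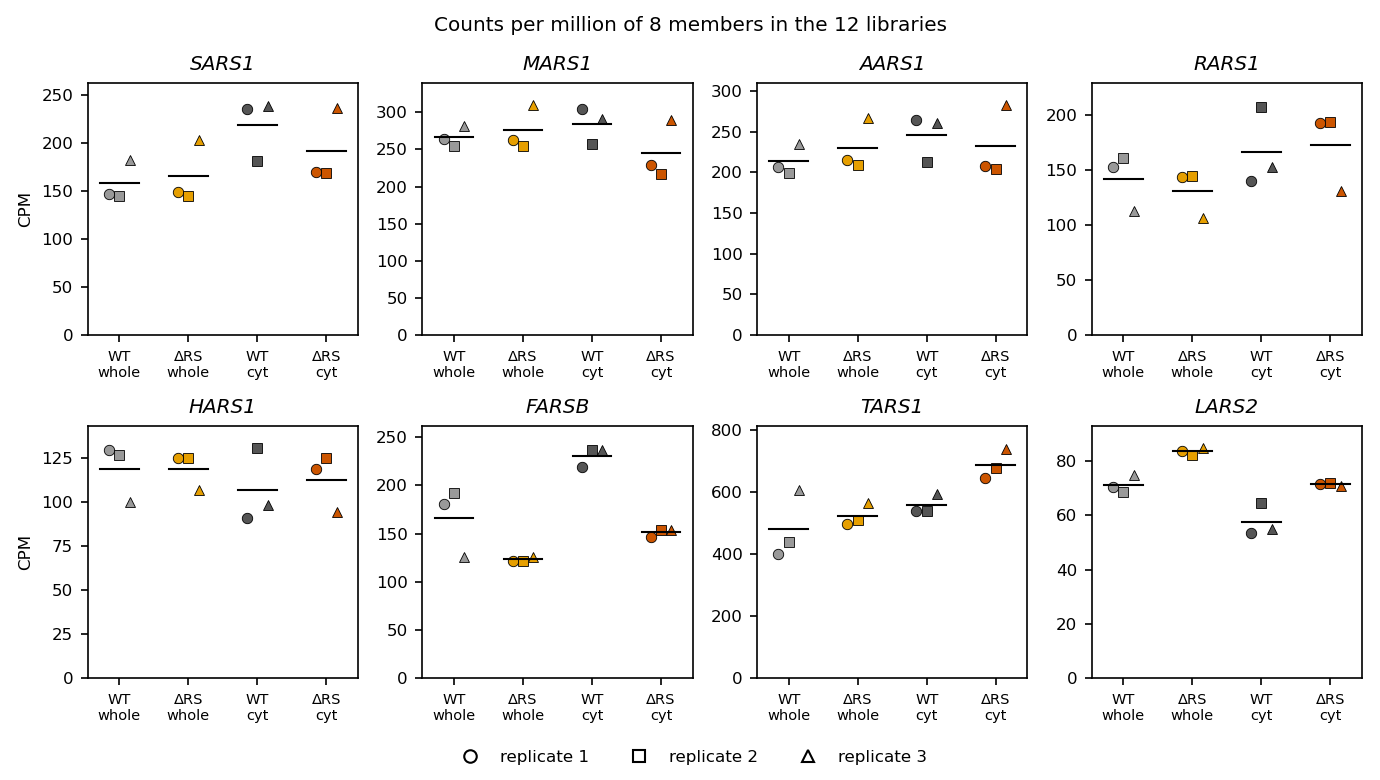
CPM (vertical axes, each from 0) of 8 members in each library, by line (WT, ΔRS) and fraction (whole, cyt); symbols mark replicate numbers and bars the mean of 3. SARS1, MARS1 and AARS1 are high in WT-res cytoplasmic replicates 1 and 3 and ΔRS-res cytoplasmic replicate 3, RARS1 and HARS1 are low there, and FARSB lies between 219 and 237 in WT-res cytoplasm and between 146 and 154 in that of ΔRS-res.

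FARSB was the member called with the study's 4 cytoplasmic libraries and with all 6. It stood at 219, 237 and 237 CPM in WT-res cytoplasm and at 146, 154 and 154 in ΔRS-res, without overlap. The log2 fold change was -0.61 (SE 0.0677, edgeR adjusted p = 0.00538), or 0.655 times the WT-res level, and -0.60 among the study's 4 libraries. Leaving out ΔRS-res cytoplasmic replicate 1 gave -0.59 with an edgeR adjusted p of 0.0542. The enzyme is built from α subunits made by FARSA and β subunits made by FARSB. The ratio of FARSB to FARSA, in TPM, was 0.334, 0.298 and 0.359 in WT-res cytoplasm and 0.200, 0.217 and 0.246 in that of ΔRS-res; FARSA itself had a log2 fold change of -0.03 (SE 0.101, edgeR adjusted p = 0.963).

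MARS2 was next, at 39.1, 45.2 and 42.2 CPM against 31.8, 32.7 and 33.2 (log2 fold change -0.37, SE 0.0796, edgeR adjusted p = 0.0784). LARS2 was at 53.4, 64.6 and 55.0 CPM against 71.4, 71.8 and 70.8 (log2 fold change 0.31, SE 0.0860, edgeR adjusted p = 0.190). TARS1 was at 537, 538 and 593 CPM against 643, 675 and 736 (log2 fold change 0.30, SE 0.0823, edgeR adjusted p = 0.180). These genes did not overlap between the lines, and none passed the test. In all 9 of the 38 members did not overlap, CARS2, HARS2, LARS2, TARS1 and TARS2 higher and AIMP1, FARSB, MARS2 and VARS1 lower in ΔRS-res, against 20.1% of all genes with a mean count of at least 100.

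**Figure D3:**
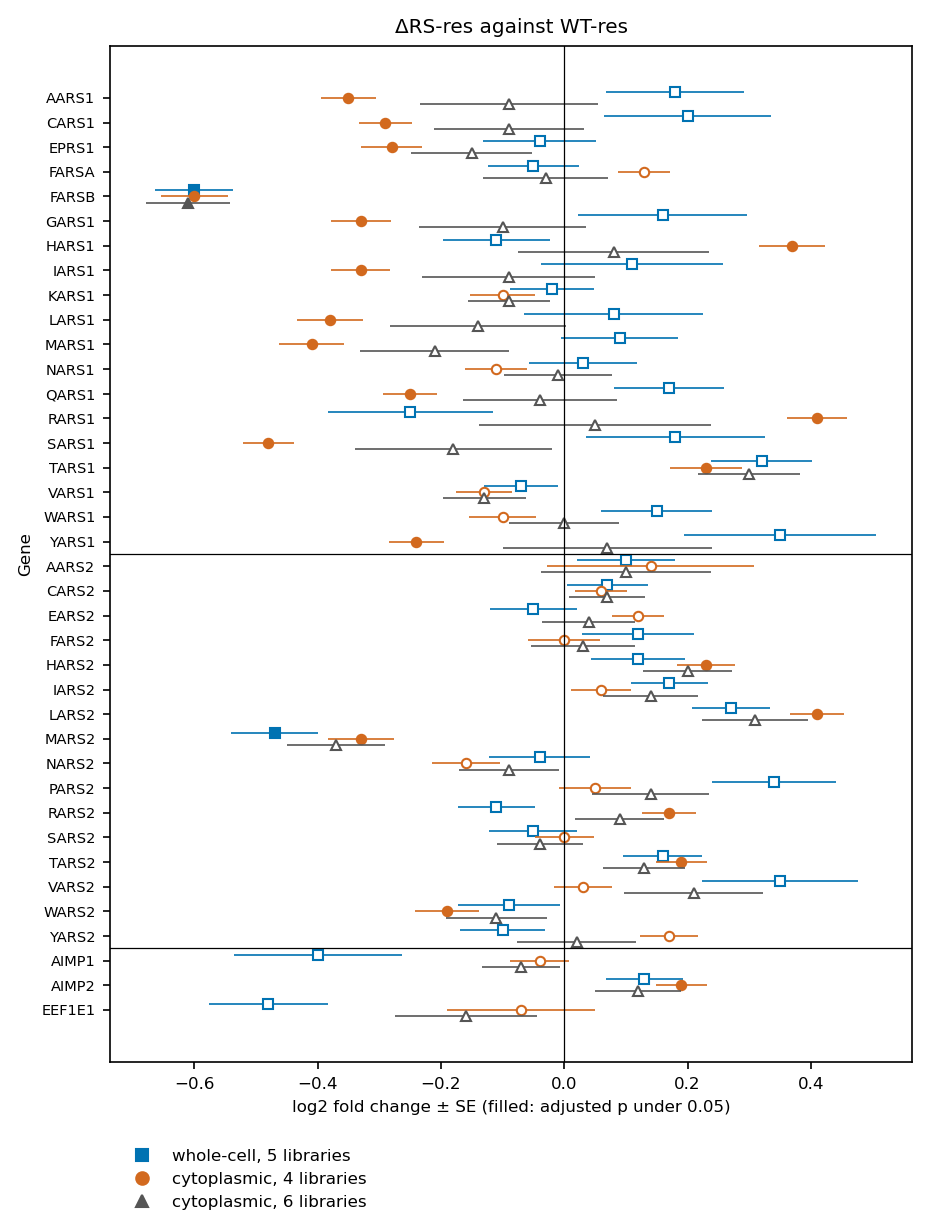
Log2 fold change of ΔRS-res against WT-res (horizontal axis, bars ± SE) of each member in whole-cell RNA without WT-res replicate 3 (squares), the study's 4 cytoplasmic libraries (circles) and all 6 (triangles); filled symbols have an edgeR adjusted p under 0.05. FARSB is filled in all 3 fits, near -0.6, while RARS1 and SARS1 move from 0.41 and -0.48 with 4 libraries to 0.05 and -0.18 with 6.

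The genes around FARSB differed in the same direction. FARSB lies on chromosome 2 from 222566899 to 222656092 (GRCh38, minus strand), and with 6 cytoplasmic libraries 50 of the 52 other genes with a mean count of at least 100 that start within 5.0 Mb had a log2 fold change below 0, with a median of -0.48; 14 of them were called lower and 8 were as low as FARSB or lower. MARS2, also on chromosome 2 (197705369 to 197708395, plus strand), had 44 of 45 such neighbours below 0, and their median was -0.52. TARS1, on chromosome 5 (33440696 to 33468091, plus strand), had 30 of 30 above 0, with a median of 0.38. The corresponding medians were -0.46, -0.63 and 0.35 among the 5 whole-cell libraries that leave out WT-res replicate 3. The differences of these 3 genes thus had the direction of most of their neighbours. With 6 cytoplasmic libraries 37 neighbours of MARS2 were as low as it or lower, and 19 of TARS1 were as high as it or higher. Whether the sizes were alike was not tested. FARSB, MARS2 and TARS1 were chosen for this view after their values were seen, and copy number was not measured.

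Among the 17 partners of tRNA charging 3 were higher and 6 lower in ΔRS-res in the study's 4 cytoplasmic libraries, where 17.4% and 17.9% of all genes with a mean count of at least 100 were, and 1 was called without ΔRS-res replicate 1 and 2 without ΔRS-res replicate 2 (8.56% and 7.73% of all genes). TSFM, the mitochondrial elongation factor Ts, was highest (log2 fold change 0.59, edgeR adjusted p = 0.00161), GATB and TRNT1 also rose, and EEF1B2, EEF1A1, EEF1D and EEF1G, subunits of the factor that brings charged tRNA to the ribosome and of its exchange factor, fell along with SEPSECS and the tRNA exporter XPOT. EEF1B2 fell furthest, by 0.56 on the log2 scale, and EEF1A1 by 0.43. With 6 cytoplasmic libraries EEF1B2 alone was called, where 0.948% of all genes were lower and 0.578% higher. It was at 508, 537 and 600.3 CPM in WT-res and 349, 400.4 and 346 CPM in ΔRS-res (log2 fold change -0.59, SE 0.0943, edgeR adjusted p = 0.0242), while EEF1A1 had -0.28 and TSFM 0.27. That call was lost when any 1 of the 6 libraries other than ΔRS-res replicate 2 was left out, at log2 fold changes of -0.64 to -0.52, and no other partner took its place. In whole-cell RNA none was called with all 6 libraries, where 2 had an unadjusted p under 0.05 (12.5% of all genes did) and DESeq2 called 1 (3.96% of all genes), and 1 was called without WT-res replicate 1 (2.24% of all genes). TRNT1 had -0.59 (edgeR adjusted p = 0.213, and 0.0304 with the replicate block, which called no other partner), EEF1B2 -0.41 and SEPSECS -0.31. Without WT-res replicate 3 EEF1B2 fell (log2 fold change -0.54, edgeR adjusted p = 0.0113), a call lost without WT-res replicate 1, WT-res replicate 2 or ΔRS-res replicate 1 at log2 fold changes of -0.56, -0.50 and -0.55, and TRNT1 had -0.51 and PSTK -0.33. The block, which called 16.6% of all genes, called these 3 (edgeR adjusted p = 0.00666 for TRNT1 and 0.0447 for PSTK). In the same comparison without the block 5 partners had an unadjusted p under 0.05 (20.1% of all genes did), and DESeq2 called 3 (9.14% of all genes). The genes around EEF1B2 were not examined in the way that those around FARSB, MARS2 and TARS1 were.

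Of the 24 ATF4 response genes 19 were lower and none higher in ΔRS-res among the study's 4 cytoplasmic libraries, with a median log2 fold change of -0.53, where 17.9% of all genes with a mean count of at least 100 were lower. DDIT3, a stress transcription factor, had -1.06, the glutathione-degrading enzyme CHAC1 -0.87 and ASNS -0.81 (edgeR adjusted p = 8.01e-04). With all 6 none was called by edgeR, 1 was called by DESeq2 (3.61% of all genes were) and 3 had an unadjusted p under 0.05 (10.8% of all genes did), and the median was -0.10; edgeR called 1 without WT-res replicate 2 and 1 without ΔRS-res replicate 3 (1.15% and 1.41% of all genes). ATF3 then had -0.47 (edgeR adjusted p = 0.0522), the cystine transporter SLC7A11 -0.43 and DDIT3 -0.32. In whole-cell RNA edgeR called none and DESeq2 1, 1 had an unadjusted p under 0.05 (of all genes DESeq2 called 3.96%, and 12.5% had such a p), and edgeR called 1 without WT-res replicate 1 (2.24% of all genes). SLC7A11 had -0.58 (edgeR adjusted p = 0.213), SESN2 0.23 and TRIB3 0.18, and the replicate block, which called 7.97% of all genes, called 2, SLC7A11 (edgeR adjusted p = 0.0188) and SESN2 (0.0360). The median was 0.05. Without WT-res replicate 3 none was called either, the median was 0.21 and TRIB3, ASNS and VLDLR had the largest values, at 0.80, 0.74 and 0.59. These values rested largely on ΔRS-res replicate 3, the highest library for each. TRIB3 was at 24.0 and 23.5 CPM in WT-res replicates 1 and 2 and at 29.6, 27.3 and 67.6 in ΔRS-res. ASNS was at 200.5 and 200.4 CPM against 233, 223 and 550.4. In that fit 3 had an unadjusted p under 0.05 (20.1% of all genes did), DESeq2 called 1 (9.14% of all genes), the replicate block 6 (25.0%, against 16.6% of all genes) and edgeR without ΔRS-res replicate 3 called 2 (6.54% of all genes).

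Cytoplasmic and whole-cell RNA were compared within each line, on a scale set over all genes tested. A gene higher in the cytoplasm is higher relative to that scale, and does not need to hold a larger share of cytoplasmic RNA. In WT-res 12 of 38 members were higher in the cytoplasm and none lower, against 12.0% and 22.4% of all genes and 20.3% and 23.1% of genes with a mean count of at least 100. Of all calls in WT-res 34.9% were higher in the cytoplasm, and 46.3% by DESeq2. In ΔRS-res 12 were higher and 1 lower, against 17.0% and 24.1% of all genes and 28.5% and 24.9% of those with higher counts. The cytosolic synthetases had a median log2 fold change of 0.32 in WT-res and 0.27 in ΔRS-res, the mitochondrial ones 0.12 and 0.13, and genes with a mean count of at least 100 had 0.14 and 0.11. Without ΔRS-res cytoplasmic replicate 3 the cytosolic median in ΔRS-res was 0.11, and that of genes with a mean count of at least 100 was 0.06.

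The fraction comparisons of the lines share no library, and 10 members were called in both, 83.3% of those called in WT-res and 76.9% of those in ΔRS-res: the phenylalanyl subunits FARSA and FARSB, KARS1, NARS1, VARS1, FARS2, TARS2, WARS2, AIMP2 and EEF1E1. Of all genes called in WT-res 83.8% were also called in ΔRS-res in the same direction, and 70.0% of those called in ΔRS-res were called in WT-res. CPM were scaled within each fraction, so CPM of the 2 fractions, here and below, are not on the scale of these fold changes. KARS1, the lysyl enzyme, was at 161, 165 and 154 CPM in WT-res whole-cell RNA and at 206, 216 and 222 in the cytoplasm (log2 fold change 0.51, SE 0.0821, edgeR adjusted p = 0.00242). In ΔRS-res it went from 159, 155 and 169 CPM to 194, 203 and 207 (log2 fold change 0.41, SE 0.0656, edgeR adjusted p = 0.00174). WARS2 had 0.55 in WT-res and 0.53 in ΔRS-res, FARSA 0.47 and 0.37, and NARS1 0.42 and 0.46. FARSB had 0.56 in WT-res and 0.38 in ΔRS-res, and 0.38 in WT-res as well once whole-cell replicate 3 was left out (edgeR adjusted p = 0.0124). With that library kept, the FARSB call in WT-res was lost without any 1 of the cytoplasmic replicates, at log2 fold changes of 0.60, 0.55 and 0.54 (edgeR adjusted p = 0.0547, 0.0662 and 0.0875).

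In WT-res SARS1 and WARS1 were called as well (0.56 and 0.40), and VARS1 and AIMP2 had 0.39 and 0.37. In ΔRS-res EEF1E1 and AIMP1 had the largest changes. EEF1E1 went from 45.5, 44.5 and 40.3 CPM in whole-cell RNA to 64.8, 77.4 and 61.0 in the cytoplasm (log2 fold change 0.72, SE 0.103, edgeR adjusted p = 9.50e-04). AIMP1 went from 53.2, 63.4 and 56.9 to 87.2, 91.1 and 86.1 (log2 fold change 0.69, SE 0.0808, edgeR adjusted p = 3.26e-04). TARS1 rose by 0.47 in ΔRS-res and AIMP2 by 0.35.

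The mitochondrial alanyl enzyme AARS2 ran the other way. It fell from 63.4, 64.2 and 57.2 CPM in ΔRS-res whole-cell RNA to 44.5, 38.0 and 43.6 in the cytoplasm (log2 fold change -0.47, SE 0.0890, edgeR adjusted p = 0.00395), and in WT-res it was at 59.2, 55.5 and 48.1 against 43.9, 42.8 and 31.1 (log2 fold change -0.38, SE 0.149, edgeR adjusted p = 0.0833). According to the study's sample sheet, whole-cell and cytoplasmic RNA of a number share a cell pellet identifier, although its methods take whole-cell RNA from a single well and cytoplasmic RNA from several pooled wells. For WT-res replicate 3 the values go against this, since SDHA was at 335 CPM in the whole-cell library and at 75.1 in the cytoplasmic one. For WT-res replicate 1 the whole-cell and cytoplasmic libraries did not deviate together from the means of their groups (Pearson r -0.166). For WT-res replicates 2 and 3 the r was 0.589 and 0.473. With the replicate number as a block, 18 members were called in WT-res, in a fit that called 38.7% of all genes, and 28 in ΔRS-res, where it called 56.5%. AARS2 was then lower in both lines, and LARS2 and VARS2 also in ΔRS-res. The count in WT-res depended on single libraries, as did the share of all genes called, which was 34.4% with all 6. It was 7 without whole-cell replicate 1 or cytoplasmic replicate 1 (24.1% and 25.4% of all genes), 5 without whole-cell replicate 2 (23.8%) and 4 without cytoplasmic replicate 3 (19.3%), these being KARS1, WARS1, WARS2 and AIMP2. Without whole-cell replicate 3 it was 21 (36.6% of all genes), of which 20 were higher and AARS2 lower.

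**Figure D4:**
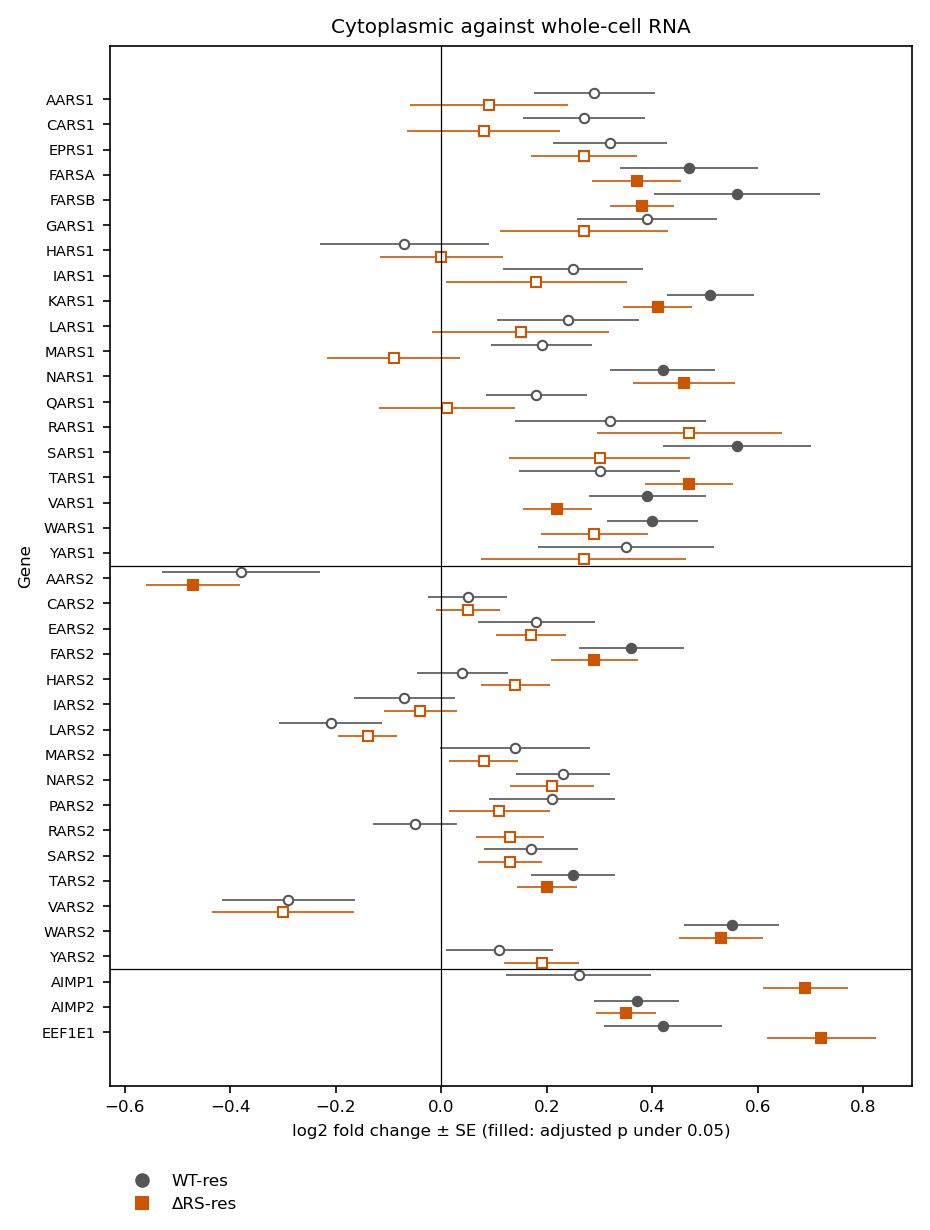
Log2 fold change of cytoplasmic against whole-cell RNA (horizontal axis, bars ± SE) of each member in WT-res (circles) and ΔRS-res (squares); filled symbols have an edgeR adjusted p under 0.05. Most cytosolic synthetases lie right of 0, AARS2 lies left of 0 in both lines, and AIMP1 and EEF1E1 lie further right in ΔRS-res (0.69 and 0.72) than in WT-res (0.26 and 0.42).

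Whether the fractions were divided differently in the lines was tested by the interaction of line and fraction over all 12 libraries. No member was called by edgeR's adjusted p, against 0.00375% of all genes, and 1 had an unadjusted p under 0.05, against 5.52% of all genes. That was AIMP1, with an interaction of 0.42 on the log2 scale (SE 0.172, edgeR adjusted p = 0.824), or 0.29 without WT-res whole-cell replicate 3 (edgeR adjusted p = 0.889). EEF1E1 had 0.29 (edgeR adjusted p = 0.972) and MARS1 -0.29 (edgeR adjusted p = 1.000). DESeq2 called none. AIMP1 was called only when WT-res whole-cell replicate 1 was left out (0.57, edgeR adjusted p = 0.029), in a fit that called 1.64% of all genes; that library held the lowest of the WT-res whole-cell values of AIMP1.

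The kinds of transcript also differed between the fractions. The share of a gene's counts that fell on transcripts annotated as not coding for protein was lower in all 6 cytoplasmic libraries than in all 6 whole-cell libraries for 15 of the 19 cytosolic synthetases that have such a transcript, 6 of 14 mitochondrial ones and 2 of 2 scaffold genes, against 36.5% of 10717 protein-coding genes that have one. For transcripts with a retained intron alone the counts were 14 of 17, 7 of 9 and 1 of 1, against 57.2% of 7564 genes; MARS2, PARS2 and EEF1E1 have neither kind. HARS1 had 30.0, 30.3 and 36.3% of its counts on retained-intron transcripts in WT-res whole-cell RNA and 27.0, 28.9 and 32.0% in that of ΔRS-res. In the cytoplasm it had 9.54, 8.21 and 7.70% in WT-res and between 7.50 and 8.48% in ΔRS-res.

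The mean share on retained-intron transcripts went from 35.7 ± 3.75% (SD, n = 6) in whole-cell RNA to 12.7 ± 2.11% in the cytoplasm for RARS2, from 21.4 ± 3.44% to 8.77 ± 1.23% for IARS1, from 18.7 ± 2.31% to 6.03 ± 0.656% for LARS1 and from 12.7 ± 1.44% to 4.24 ± 0.964% for AARS1. TARS1 did not share this, at 5.29 ± 0.397% and 5.50 ± 0.397%. In EARS2, the mitochondrial glutamyl enzyme, the share on all transcripts not coding for protein was higher in the cytoplasm, at 29.9 ± 2.40% against 23.7 ± 1.46%. These genes were picked after their values were seen. The shares rest on how RSEM divided reads among overlapping transcripts, and reads from unspliced RNA can be counted on a retained-intron transcript.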

How the data were processed

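The authors deposited RSEM expected counts per transcript (Ensembl release 107, GRCh38), made with the nf-core/rnaseq pipeline (Trim Galore, STAR, RSEM) from rRNA-depleted paired-end libraries. The versions of these tools are not given in the sources used here. Between 43.3% and 47.0% of a library's values were not whole, and counts were not scaled between libraries.

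Counts were summed per gene, rounded and tested with edgeR 4.0.16 (R 4.3.3): TMM scaling, genes with a mean count above 2, quasi-likelihood test, Benjamini-Hochberg adjustment over all genes tested, call at an adjusted p under 0.05. CPM use TMM library sizes within a fraction, and TPM use annotated transcript lengths. Gene and transcript types came from GENCODE 44, which matched 99.83% of genes and 99.72% of transcripts. The fits were tested on simulated data with known changes.

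Members and gene lists were chosen with earlier results of these data known. Named were the members called in a comparison, at most 10 by size, or the 3 largest changes where fewer than 3 were called, the highest and lowest level in each class, and the 3 largest changes of each other list; other names were chosen after their values were seen. Alternatives were DESeq2 1.42.0 and its size factors, no count filter, a replicate block, the study's threshold, longest transcript lengths and each replicate left out.

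Replicates were consecutive passages, so p-values measure the spread between passages of 1 clone per line. Same-numbered whole-cell libraries deviated together (Pearson r 0.544, 0.548 and 0.683 over 14938 genes), and of the cytoplasmic pairs those numbered 2 and 3 did but 1 did not (r -0.421, 0.619 and 0.467), so these were not taken as paired. Deviations were taken from the mean of a group and cancel out within it, so the r values of a group are not independent of each other. Whole-cell and cytoplasmic libraries of a number share a pellet identifier in the study's sample sheet (r -0.166, 0.589 and 0.473 in WT-res, 0.519, 0.466 and 0.797 in ΔRS-res). No libraries of a group were copies (chi-square per gene at least 15.8).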

Additional observations from a re-analysis of the deposited data

How the results depend on the processing

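Of the log2 fold changes of named members under the alternatives, 379 kept their direction and their side of the threshold, 58 kept their direction and lost the call, 13 gained it, and none of the called values changed sign. The number of members called moved by over 1.5 times as follows. In whole-cell RNA it was 0, and 4 with the replicate block, 2 with DESeq2 and 1 at the study's threshold (6.34% of all genes). With a replicate left out it was 0 to 2, where 0% to 2.24% of all genes were called. Without WT-res whole-cell replicate 3 it was 2, and 7 with no count filter (7.74% of all genes, against 2.06%), 11 with the block and 6 with DESeq2 (9.14% of all genes). It was 1 at the study's threshold (10.4%), 5 without ΔRS-res replicate 3 as well (6.54%) and 1 without ΔRS-res replicate 1 or 2 (0.821% and 1.22%). Without WT-res replicate 2, which left 1 WT-res library, both calls were lost. In the study's 4 cytoplasmic libraries it was 21, and 1 at the study's threshold (13.1% of all genes). It was smaller with a ΔRS-res replicate left out, where 1 library stood for ΔRS-res and the share of all genes called was smaller too. With a WT-res replicate left out, where 1 library stood for WT-res, neither was smaller. In all 6 it was 1, 3 with DESeq2, 1 with the block (2.0% of all genes) and 0 to 1 with a replicate left out (0.453% to 1.41%). Cytoplasmic against whole-cell RNA gave 12 in WT-res, and 19 with DESeq2 (38.6% of all genes), 4 at the study's threshold (31.2%) and 4 to 21 with a replicate left out (19.3% to 36.6%, against 34.4% with all). It gave 13 in ΔRS-res, and 21 with DESeq2 (42.6% of all genes) and with its size factors (43.3%), 28 with the block, 3 at the study's threshold (33.8%) and 10 to 16 with a replicate left out (32.0% to 42.7%, against 41.1% with all). The interaction gave 0, and 0 to 1 with a replicate left out. The cause of these moves was not tested.

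Median log2 fold changes by class also moved, some past 0. The mitochondrial median was 0.19 in both fraction comparisons with DESeq2 and with its size factors, 0.06 in whole-cell RNA without WT-res replicate 3 with the block, 0.03 in the study's 4 cytoplasmic libraries with no count filter, where the cytosolic one was -0.28, and 0.01 for the interaction with no filter. With a replicate left out the cytosolic median ranged from -0.04 to 0.09 in whole-cell RNA, 0.00 to 0.17 without WT-res replicate 3, -0.29 to -0.23 in the 4 and -0.19 to -0.03 in the 6 cytoplasmic libraries, 0.26 to 0.37 and 0.11 to 0.34 between the fractions of WT-res and ΔRS-res, and -0.21 to -0.03 for the interaction. The mitochondrial median ranged, in the same order, from 0.06 to 0.09, 0.07 to 0.09, 0.03 to 0.08, 0.06 to 0.10, 0.05 to 0.18, 0.10 to 0.15 and -0.05 to 0.01, and that of the scaffold genes from -0.53 to -0.40, -0.60 to -0.13, -0.09 to 0.09, -0.11 to -0.06, 0.32 to 0.40, 0.62 to 0.74 and 0.18 to 0.36. The median level of the scaffold genes was 138 TPM by longest transcript, and 1 of them had a lower share of retained-intron transcripts in the cytoplasm.

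No paired analysis was possible for the study's 4 cytoplasmic libraries because the lines share 1 replicate number there. The alternatives for the partner and ATF4 lists were chosen after seeing the data. With 2 or 3 libraries a group, a p that missed the threshold does not show that levels were alike.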
